A study of Mus musculus with 16 samples.

Results

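The promoters of 10 genes of the insulin pathway were followed in Promoter Capture Hi-C (P-CHi-C) of mouse liver: Insr, Irs1, Irs2, Pik3r1, Akt2, Foxo1, Foxo3, Trib1, Trib3 and Sik1. A promoter was taken as the HindIII fragment that holds the start of the gene in the GENCODE annotation of build mm9, and all 10 of these fragments were baits, which are the fragments captured with RNA probes. They are 10 of 18165 baits in the lists, and they took part in 494 of 247177 distinct listed pairs. Captured fragments without a listed contact are absent from the lists, so a bait below means 1 of these 18165. Livers came from wild type male C57BL/6 mice labelled as 8 weeks old, which by the methods was their age when a cycle of 12 h light and 12 h dark began, 2 weeks before dissection, with food unrestricted. They were collected at ZT0, ZT6, ZT12 and ZT18, where zeitgeber time (ZT) counts hours since lights on. For each of these 4 timepoints, 3 pools of 2 livers were used, and with pool A sequenced on 2 lanes the series has 16 samples. Contacts were called after merging the pools, so each timepoint is 1 list, no value has a replicate error and no difference between timepoints was tested. The lists hold no RNA levels, so the liver label was not checked against marker genes.

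Insulin binds the receptor encoded by Insr, a tyrosine kinase that phosphorylates the adaptors Irs1 and Irs2. These recruit phosphoinositide 3-kinase, whose regulatory subunit p85 alpha is the product of Pik3r1, and the lipid it makes activates the kinase Akt2. Akt phosphorylates Foxo1 and Foxo3, transcription factors that then leave the nucleus, which in liver lowers the expression of gluconeogenic genes. Trib1 and Trib3 encode pseudokinases, of which Trib3 can bind Akt and Trib1 guides the degradation of C/EBP alpha, and Sik1 encodes a kinase that holds CRTC coactivators of CREB in the cytoplasm.

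A contact here joins 2 HindIII fragments and carries a CHiCAGO score, which is higher the more reads join the fragments than distance and noise predict. Only scores of at least 5 were listed, so a contact that is absent from a list scored below 5 there and was not measured as 0. The lists held 146262, 154775, 151529 and 151347 pairs from ZT0 to ZT18, an order in which all runs of 4 values are given, and numbers of contacts are therefore also given per 100000 pairs of the list. A summary given with the study sets the totals of the lists labelled ZT6, ZT12 and ZT18 under other timepoints. The labels were followed here, so every timepoint named below except ZT0 rests on them.

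The 250 bases before the gene start are shown for 3 promoters: Irs1 and Trib1, the members with a match to a searched element, and Foxo1, the member with the most contacts. Positions are chr1:82287992-82288241 on the minus strand for Irs1, chr15:59479655-59479904 on the plus strand for Trib1 and chr3:52072009-52072258 on the plus strand for Foxo1, all in mm9. Capitals mark the matched element and no element was matched for Foxo1.
Irs1: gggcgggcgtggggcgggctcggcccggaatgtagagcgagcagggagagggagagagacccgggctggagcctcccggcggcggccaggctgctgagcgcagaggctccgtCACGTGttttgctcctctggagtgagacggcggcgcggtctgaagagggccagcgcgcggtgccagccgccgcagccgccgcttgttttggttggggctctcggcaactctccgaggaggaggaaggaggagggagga
Trib1: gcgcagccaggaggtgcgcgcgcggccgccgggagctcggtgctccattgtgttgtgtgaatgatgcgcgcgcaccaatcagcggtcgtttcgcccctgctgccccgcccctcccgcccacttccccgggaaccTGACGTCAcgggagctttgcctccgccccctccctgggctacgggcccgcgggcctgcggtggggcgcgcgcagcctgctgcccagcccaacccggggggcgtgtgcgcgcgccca
Foxo1: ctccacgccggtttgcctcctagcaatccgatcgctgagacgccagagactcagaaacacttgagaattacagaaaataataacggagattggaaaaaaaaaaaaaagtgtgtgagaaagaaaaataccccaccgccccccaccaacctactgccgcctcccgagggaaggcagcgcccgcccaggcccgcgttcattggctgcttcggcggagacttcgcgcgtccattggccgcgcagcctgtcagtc

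Several elements that clock, cAMP and FoxO factors are known to bind were searched on both strands from 250 bases before to 50 bases after each gene start. The E-box CACGTG began 138 bases before the start of Irs1, and 7.73% of the 21768 gene starts on baits had an E-box in this window. The cAMP response element TGACGTCA began 116 bases before the start of Trib1, against 2.18% of all windows. The D-box TTATGTAA, the core TAGGTCA of the ROR element and the FoxO element GTAAACA were found in none of the 10 windows, and in 0.910%, 2.24% and 3.17% of all windows. In base composition, 9 of the 10 windows lay above the median GC content of 55% and all 10 above the median of 11 CpG. Sik1 had 53 CpG and Irs2 had 47 in the window, while Akt2 had the lowest GC content at 50% and the fewest CpG at 12.

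The 10 promoters differed widely in the number of fragments they contacted. Foxo1 had 129 distinct contacts over the 4 lists, more than 99.8% of all baits. It was followed by Trib1 with 77, Irs1 and Foxo3 with 68 each, Irs2 with 49, Pik3r1 with 47 and Insr with 29. Akt2 had 13, Sik1 had 8 and Trib3 had 6, and the last 2 lay below the median bait, which had 9. In all, 8 of the 10 exceeded the median bait and 7 exceeded the upper quartile of 21 contacts. Captured fragments with no listed contact were not counted in these ranks. Sik1 and Trib3 therefore need not lie below the median of all captured fragments. The bait fragments range from 3237 bp for Sik1 to 25549 bp for Foxo3, and those of Irs2, Foxo1 and Trib3 also hold the starts of 9530052E02Rik, of RP24-337A16.1 and of Gm14164 and Gm14165, whose contacts cannot be told apart from theirs.

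**Figure D1:**
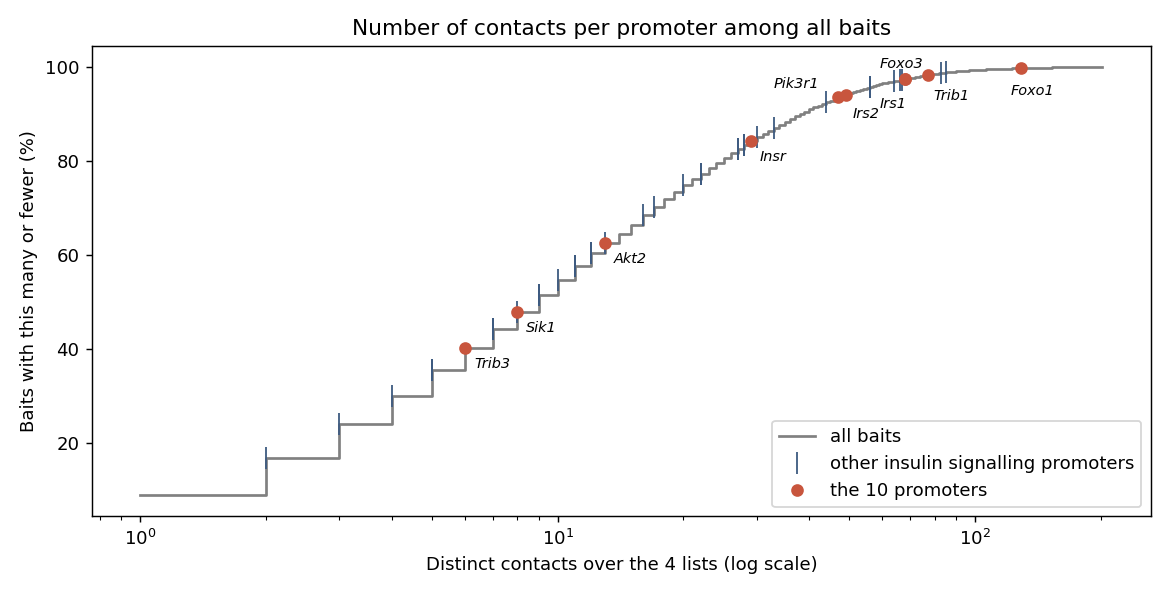
Cumulative share of all 18165 baits (y axis, percent) against the number of distinct contacts over the 4 lists (x axis, log scale). Red points are the 10 promoters, from Trib3 with 6 contacts to Foxo1 with 129, and blue ticks are the other insulin signalling promoters that lie on a bait.

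Together the promoters had 313, 357, 348 and 332 contacts from ZT0 to ZT18, or 214, 231, 230 and 219 per 100000 pairs. Without Foxo1 they had 241, 261, 236 and 244, so that ZT12 was lowest in place of second highest. Per 100000 pairs the most contacts fell at ZT0 for Irs1, at ZT6 for Irs2, Pik3r1 and Trib1, at ZT12 for Akt2, Foxo1, Foxo3 and Trib3 and at ZT18 for Insr and Sik1. Over all baits the most contacts fell at ZT0 for 31.4%, at ZT6 for 21%, at ZT12 for 21% and at ZT18 for 26.6%. The ZT0 list was the shortest, so a bait whose highest raw number occurred at ZT0 and elsewhere was counted at ZT0. By raw numbers Irs1 had most at ZT6, with 45 against 43 at ZT0, and Trib3 had 4 at both ZT6 and ZT12. None of the 7 members with at least 10 contacts at a timepoint had a range of 2-fold or more over the day, a range that 16% of such baits reached. Among the 3 members with at least 50 contacts at a timepoint, a 1.5-fold range was reached by Foxo1 alone, with 73.9 at ZT12 against 49.2 at ZT0. Foxo1 only just reached it, as did or surpassed 16.2% of such baits. Irs1, with a range of 1.54-fold, and Irs2 had wider ranges than Foxo1 but fell below the minimum of 50 contacts. That Foxo1 stood alone therefore depends on this minimum. Trib1 had the narrowest range, 1.11-fold, and Irs2 the widest of the larger promoters, 1.65-fold. Akt2 and Sik1 had ratios of 2.30 and 2.50, on 4 to 9 and on 2 to 5 contacts.

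**Figure D2:**
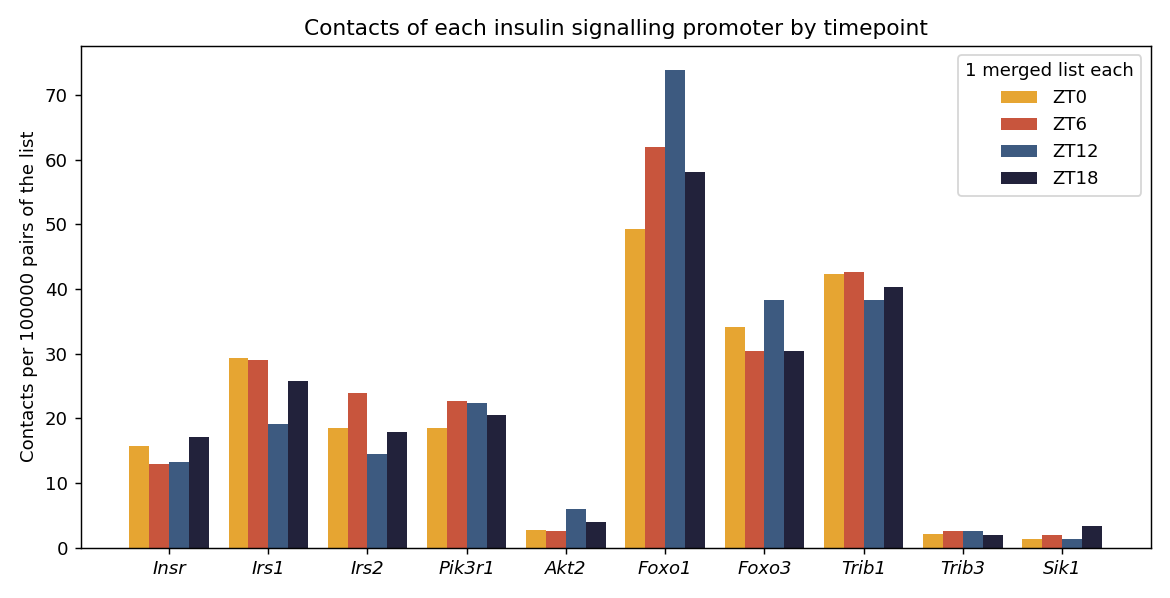
Contacts of each promoter (x axis) per 100000 pairs of the list (y axis), with 1 bar for the merged list of each timepoint and no error bar. Foxo1 has its highest bar at ZT12, 73.9, and Irs1 and Irs2 have their lowest bars at ZT12, 19.1 and 14.5.

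Of the 494 contacts, 210 were listed at all 4 timepoints, 42.5% with a 95% Wilson interval of 38.2% to 46.9%, against 32.5% of all pairs. A further 128, or 25.9% (22.2% to 30.0%), were listed at 1 timepoint only, against 35.2% of all pairs. These intervals cover counting error only, and neighbouring fragments contacted by the same bait are not independent. Contacts seen once had a median score of 5.67 and a highest score of 13.6, and the median over all pairs seen once was 5.6. A score of 10 was reached at some timepoint by 167 of the 494 contacts, and by 53170 of all 247177 pairs. The part of this difference in score in the shares listed at all 4 timepoints was not tested. Of the 167, 13 were missing from another list, 7.78% (4.61% to 12.9%) against 10.3% of all such pairs. Of the 167, 1 had no listed contact of the same promoter within 10 kb at some timepoint. This share was not computed over all such pairs, so it cannot be compared with theirs. Trib1 kept the largest share of its contacts at all 4 timepoints, 48 of 77 (62.3%), followed by Foxo3 with 36 of 68 (52.9%) and Insr with 15 of 29 (51.7%). Foxo1 kept 53 of 129 (41.1%) and Pik3r1 20 of 47 (42.6%). Among the larger promoters the adaptors had the lowest shares, with 20 of 68 (29.4%) for Irs1 and 13 of 49 (26.5%) for Irs2. With another end within 10 kb counted as the same contact, the order below Trib1 changed. Trib1 then kept 72 of 77, Insr 26 of 29, Pik3r1 40 of 47 and Foxo1 109 of 129. Foxo3 kept 53 of 68, Irs2 34 of 49 and Irs1 47 of 68. The differences between promoters were not tested.

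**Figure D3:**
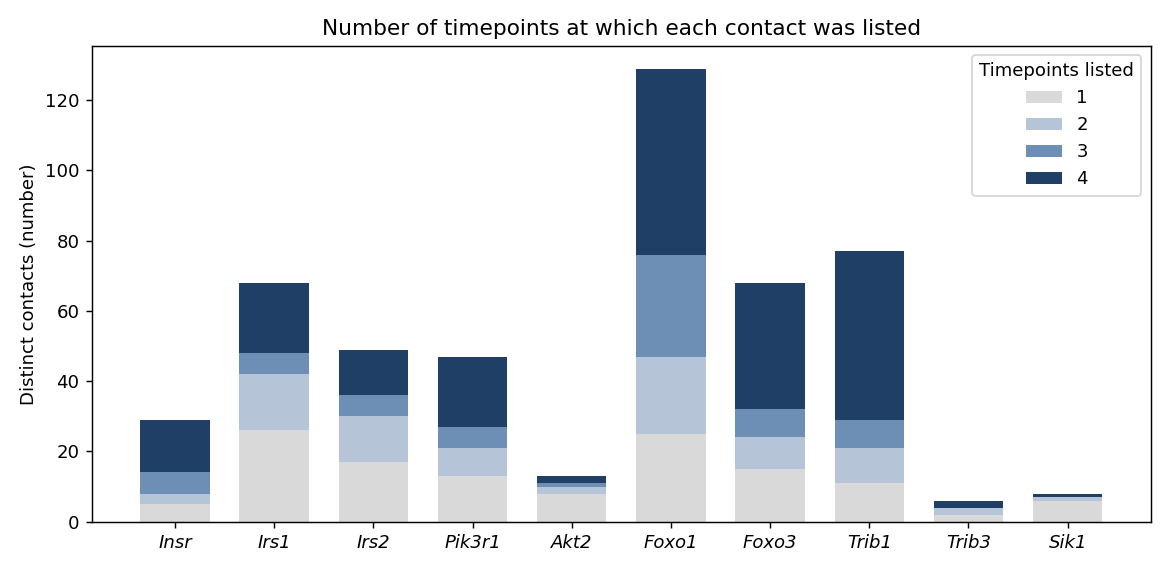
Number of distinct contacts of each promoter (y axis), divided by the number of timepoints at which a contact was listed, from 1 in light grey to 4 in dark blue. Trib1 shows 48 of 77 contacts at all 4 timepoints and Irs2 shows 13 of 49.

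All contacts of the 10 promoters lay on their own chromosome, as did all but 198 of the 247177 pairs in the lists. Their median distance was 253 kb between fragment midpoints, against 162 kb over all pairs within a chromosome. The median was 256 kb, 253 kb, 251 kb and 249 kb from ZT0 to ZT18. Another bait was the partner in 31 contacts, 6.28% (4.46% to 8.77%), against 15.4% of all pairs. Of the 463 contacts with a fragment that is no bait, 316 (68.3%) reached a fragment that overlaps no annotated gene, against 36.1% of all such pairs. Foxo1 with 123 of 127, Pik3r1 with 45 of 45 and Irs1 with 52 of 66 made up most of these. Of the 7 members with at least 20 contacts, Foxo1, Irs1, Pik3r1 and Foxo3 had 90% or more on 1 side of the bait, as did 39.4% of such baits.

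To show which stretches the strongest contacts reached, the first 60 bases of the highest-scoring fragment are given for 5 promoters, on the plus strand of mm9. The capitals are the bases of the HindIII site left on the fragment. The positions are chr3:52558733-52558792 for Foxo1, chr10:41695132-41695191 for Foxo3, chr15:59226967-59227026 for Trib1, chr1:81308745-81308804 for Irs1 and chr13:102684921-102684980 for Pik3r1.
Foxo1: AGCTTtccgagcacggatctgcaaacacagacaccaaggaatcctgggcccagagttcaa
Foxo3: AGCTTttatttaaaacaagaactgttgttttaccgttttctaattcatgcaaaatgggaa
Trib1: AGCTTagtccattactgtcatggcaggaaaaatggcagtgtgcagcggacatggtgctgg
Irs1: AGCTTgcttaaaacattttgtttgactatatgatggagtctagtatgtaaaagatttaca
Pik3r1: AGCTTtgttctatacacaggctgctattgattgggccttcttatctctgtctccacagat
Each of these 5 fragments was contacted by no other bait in the lists. The highest-scoring fragments of the other 5 promoters were shared. Those of Trib3, Sik1 and Akt2 are themselves baits and were captured, so their numbers are not comparable with those of fragments that are no bait. Counting the promoter itself, 2 baits contacted that of Insr, 3 that of Irs2, 5 that of Trib3, 6 that of Sik1 and 8 that of Akt2. Insr had the highest score with its fragment. For the others another bait scored higher with the fragment, at 57.54 for that of Irs2, 24.49 for Trib3, 39.12 for Sik1 and 13.21 for Akt2.

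Insr, which encodes the insulin receptor, contacted mainly its own gene. Its bait is chr8:3275359-3279853, with the gene start at 3279617 on the minus strand. It had 23, 20, 20 and 26 contacts from ZT0 to ZT18. Of its 29 distinct contacts, 19 overlapped the Insr gene, between 16.4 and 111 kb downstream of the bait, and 9 formed a second group 13.5 to 60.1 kb upstream. The strongest contact was chr8:3190908-3215766, an exon-bearing fragment of Insr 74.3 kb downstream that also holds the start of the transcript Insr-201. It scored 12.27, 11.77, 12.6 and 19.18 from ZT0 to ZT18. Upstream, chr8:3324734-3329513 at 49.5 kb scored 10.53, 11.46, 9.32 and 17.01 in the same order. The ZT18 value was the highest in both cases, and among the 15 Insr contacts listed throughout, 10 scored highest at ZT18 and 5 at ZT12. Over all pairs listed at all 4 timepoints, 22%, 26.1%, 25.6% and 26% had their highest score at ZT0, ZT6, ZT12 and ZT18 in turn. The upstream group was listed at 7, 6, 3 and 8 fragments at ZT0, ZT6, ZT12 and ZT18. Gm16180, whose bait lies inside Insr 16.4 kb from the Insr bait, shared 19 fragments with it, 65.5% of those of Insr and 59.4% of its own.

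Irs1, the adaptor gene on chromosome 1, reached farthest. From its bait at chr1:82282878-82291690, 67 of 68 contacts lay downstream of the gene start at 82287991, at distances up to 993 kb and with a median of 608 kb. The number of contacts was 43, 45, 29 and 39 from ZT0 to ZT18, with ZT12 lowest. Its strongest contact was chr1:81308745-81309281, 978 kb away in an intron of 9430031J16Rik. This fragment scored 34.45, 32.68, 28.9 and 33.15 from ZT0 to ZT18. It lay in a block of 13 contacted fragments between 953 and 993 kb, where a block is a run of fragments with gaps of at most 10 kb. A second block of 9 fragments lay 757 to 781 kb away in no annotated gene, led by chr1:81514710-81515952 with scores of 27.82, 24.95, 19.66 and 19.66. These 2 blocks held 13 of the 20 contacts listed at all 4 timepoints. The weaker fragments between them and the promoter varied more: the block at 666 to 680 kb, with scores of up to 7.25, was listed at 1, 5, 0 and 1 fragments at ZT0, ZT6, ZT12 and ZT18. Of the 20 Irs1 contacts listed throughout, 11 scored highest at ZT0. The single upstream contact was the promoter of Rhbdd1, a rhomboid protease gene, 26.4 kb away, which scored 9.9, 6.87, 12.36 and 11.04. Gm9747, whose bait also holds the far end of Irs1, shared 14 fragments with it, 20.6% of those of Irs1 and 70% of its own.

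Irs2, the adaptor gene on chromosome 8, had 27, 37, 22 and 27 contacts from ZT0 to ZT18 from the bait chr8:11000637-11017724. Of its 49 distinct contacts, 31 were downstream and 18 upstream, and 18 overlapped Myo16, a gene of an unconventional myosin. The strongest was chr8:10573222-10573845, 436 kb downstream in an intron of Myo16. It scored 16.74, 15.89, 7.84 and 11.86 from ZT0 to ZT18, so the ZT12 score was less than the others. The fragment next to it, chr8:10571861-10573221, scored 14.42, 12.35, 7.85 and 11.98, again lowest at ZT12. At ZT12, 2 contacts of Irs2 reached a score of 10, against 8 at ZT0, 5 at ZT6 and 8 at ZT18. The block 116 to 156 kb downstream was listed at 2, 7, 3 and 2 fragments from ZT0 to ZT18, and none of it was listed throughout. The same Myo16 fragment had a higher score, 57.54, with the bait of Gm15418, which lies 178 kb upstream of Irs2 and is itself a contact of Irs2 with scores of 10.38, 10.89, 9.66 and 11.18. Irs2 shared 23 fragments each with 3930402G23Rik (46.9% of those of Irs2 and 60.5% of that promoter) and with Gm15418 (46.9% and 21.3%).

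Pik3r1 contacted only gene-free fragments besides 2 baits. Its bait is chr13:102536594-102541201, and 45 of 47 contacts lay upstream of the gene start at 102538172. It had 27, 35, 34 and 31 contacts from ZT0 to ZT18. The strongest was chr13:102684921-102685846, 146 kb upstream, with scores of 21.23, 18.87, 26.65 and 19.35, highest at ZT12. The fragment beside it, chr13:102685847-102695695, scored 13.13, 12.48, 17.9 and 12.49, again highest at ZT12. A distant fragment, chr13:103432560-103435903 at 895 kb, scored 11.59, 17.44, 17.08 and 22.41 from ZT0 to ZT18, so it was lowest at ZT0. Of the 20 contacts listed throughout, 10 scored highest at ZT12 and 6 at ZT18. The 2 baits were those of Slc30a5, a zinc transporter gene, listed at ZT0 and ZT6 with 5.78 and 6.03, and of Gm10257, listed at ZT6 with 5.63. The most similar promoter, a U6 gene, shared 1 fragment. The other annotated transcript starts of Pik3r1 lie on a fragment that is no bait and had no contact.

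**Figure D4:**
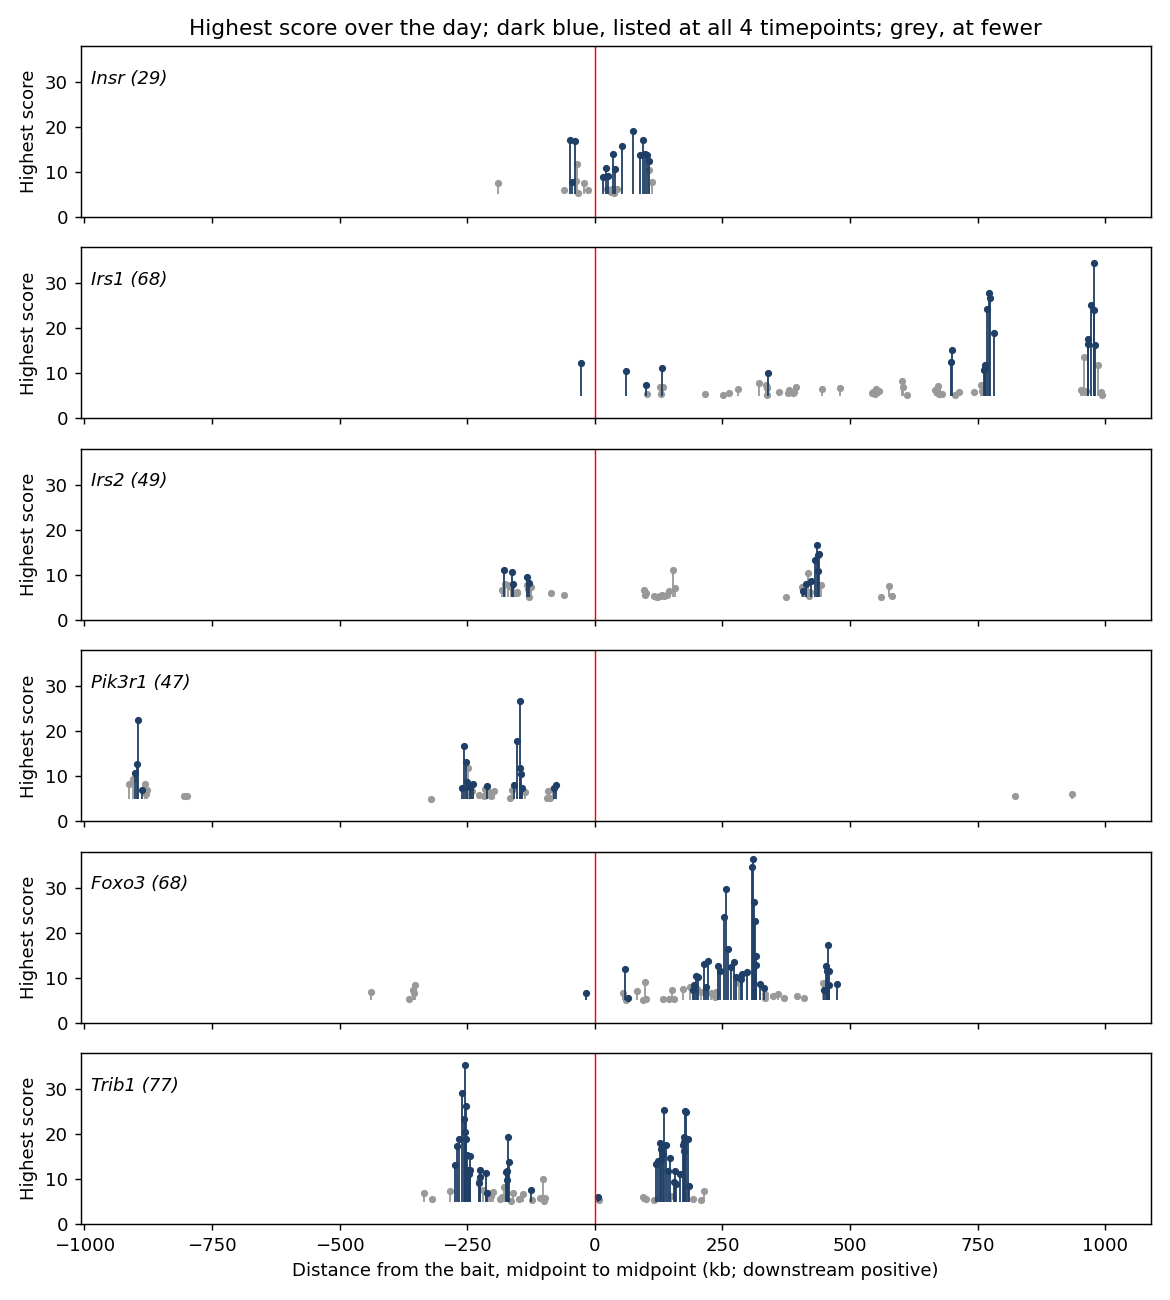
Contacts of 6 promoters by distance from the bait (x axis, kb, downstream of the gene start positive) and highest CHiCAGO score over the day (y axis), with the number of contacts in parentheses. Dark blue contacts were listed at all 4 timepoints and grey ones at fewer, and the red line is the bait. Irs1 reaches 993 kb downstream, Pik3r1 has 45 of 47 contacts upstream and Insr stays within 190 kb.

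Akt2, the kinase gene, contacted mostly other promoters. It had 4, 4, 9 and 6 contacts from ZT0 to ZT18, and 8 of the 13 distinct ones were baits. The strongest joined it to C030039L03Rik, 91.0 kb downstream, with scores of 10.64, 7.79, 11.14 and 6.14 from ZT0 to ZT18. The second joined it to the shared promoter fragment of Pld3, a phospholipase D family gene, and 2310022A10Rik, 39.6 kb upstream, with 8.33, 7.68, 9.85 and 7.65. Both were highest at ZT12, and no other Akt2 contact was listed throughout. A fragment within Akt2 itself, 40.5 kb downstream, was absent at ZT0 and scored 6.09, 7.29 and 6.61 at the later timepoints. The fragment with the starts of Gm15567 and Numbl shared most with Akt2, 5 fragments (38.5% and 35.7%). The only bait at another transcript start of any member was that of Akt2-012, which also holds the start of Ttc9b and had 9 contacts.

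Foxo1, the forkhead factor gene, had the largest number of contacts and all 129 lay downstream of its start at chr3:52072259. It had 72, 96, 112 and 88 contacts from ZT0 to ZT18. They ran from 65.8 to 713 kb in 9 blocks, and 3 of them overlapped Foxo1 itself. The strongest block, 469 to 527 kb away in no annotated gene, was listed at 16, 16, 17 and 15 fragments from ZT0 to ZT18. In it chr3:52558733-52560785 scored 20.42, 35, 20.01 and 26.61 from ZT0 to ZT18. The neighbouring chr3:52563673-52566924 scored 31.33, 23.06, 29.5 and 25.47, with ZT6 lowest, and chr3:52560786-52563672 between them 26.2, 27.27, 29.39 and 28.97. Within 10 kb the order of the timepoints thus differed from fragment to fragment.

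The Foxo1 contacts were also counted in 3 distance classes, which were set after the values were seen. Contacts at 460 kb or more numbered 32, 34, 35 and 31 from ZT0 to ZT18. Those from 160 to 460 kb numbered 39, 54, 63 and 48. Those under 160 kb numbered 1, 8, 14 and 9, and a single one, of 14, was listed throughout. In the whole lists, pairs under 160 kb made up 53.4%, 53.0%, 55.8% and 55.4% from ZT0 to ZT18, and the part of this shift in the Foxo1 numbers was not tested. The highest score in this class was 11.05 at chr3:52167662-52168228, which was absent at ZT0 and scored 6.66 at ZT6 and 7.85 at ZT18. In the middle class the fragment 259 kb away scored 10.27, 17.71, 24.2 and 16.09, and the one 330 kb away 14.27, 9.83, 21.96 and 17.8. Of the 53 contacts listed throughout, 27 scored highest at ZT12, 18 at ZT6, 6 at ZT18 and 2 at ZT0. Their median score was 8.32, 9.61, 11.83 and 9.04 from ZT0 to ZT18, while the median over all pairs listed throughout ran from 8.75 at ZT0 to 8.98 at ZT12 and ZT18. Contacts of Foxo1 listed once fell at ZT12 in 15 of 25 cases, against 24.3% of all pairs listed once. The most similar promoter was Gm10293, 343 kb downstream, with 9 shared fragments (6.98% of those of Foxo1 and 40.9% of its own).

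**Figure D5:**
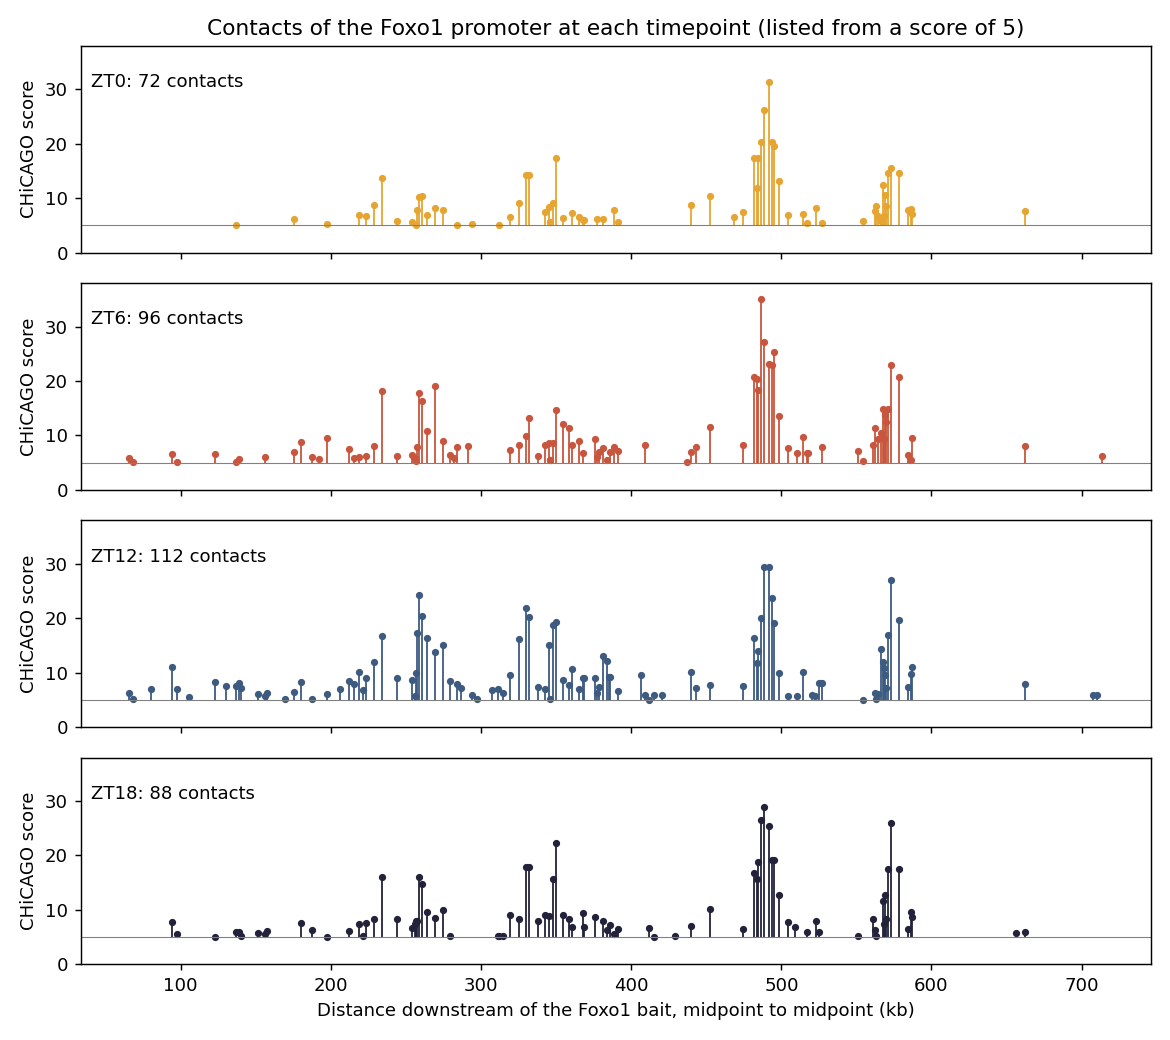
CHiCAGO score (y axis) of every listed contact of the Foxo1 promoter by distance downstream (x axis, kb), with 1 panel for each timepoint and the listing minimum of 5 as a grey line. The blocks at 469 to 527 kb and at 551 to 587 kb are present in every panel, while contacts under 160 kb number 1 at ZT0 and 14 at ZT12.

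Foxo3, the related factor on chromosome 10, had 50, 47, 58 and 46 contacts from ZT0 to ZT18. From the bait chr10:41993265-42018813, 62 of 68 lay downstream, and 20 overlapped Armc2 and 10 Sesn1, the gene of a sestrin that restrains mTORC1. The strongest, chr10:41695132-41697019, 310 kb away on an exon-bearing fragment of Armc2, scored 33.05, 36.37, 33.95 and 28.34 from ZT0 to ZT18. Beside it, chr10:41697020-41697982 scored 34.57, 31.32, 28.29 and 32.46. The first held the highest score of the 10 promoters, and both stayed above 28 in every list. The bait with the starts of Sesn1 and Cep57l1, 474 kb away, was listed throughout with 7.06, 8.11, 6.01 and 8.6, and that of Armc2 with 11.84, 9.98, 11.51 and 12.35. All 25 contacts that reached a score of 10 were in all 4 lists. The highest scores were spread over the day: of 36 contacts listed throughout, the highest score fell 8, 11, 10 and 7 times from ZT0 to ZT18. Ccdc162 was the most similar promoter, with 1 shared fragment.

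Trib1 had the steadiest set. Its bait chr15:59478434-59487507 had 62, 66, 58 and 61 contacts from ZT0 to ZT18, with 46 of 77 upstream and 31 downstream of the start at 59479905. Of these, 43 overlapped Nsmce2, the gene of a SUMO ligase of the SMC5/6 complex, which lies upstream. The strongest, chr15:59226967-59229165 in an intron of Nsmce2 at 255 kb, scored 35.5, 32.34, 34.4 and 32.17 from ZT0 to ZT18. Its block of 15 fragments, 244 to 283 kb away, had 14 fragments in all 4 lists. A downstream block of 27 fragments at 116 to 213 kb had 22 in all 4 lists, with chr15:59618350-59620232 scoring 17.77, 22.6, 24.32 and 25.5 and chr15:59658535-59661427 scoring 25.17, 21.66, 21.01 and 17.43. The first was lowest and the second highest at ZT0. Of the 48 contacts listed throughout, 24 scored highest at ZT0, and their median score was 12.7, 11.3, 11.8 and 10.8 from ZT0 to ZT18. The promoter of Sqle, which encodes the squalene epoxidase of cholesterol synthesis, was contacted at 335 kb with scores of 7.05 at ZT0 and 5.63 at ZT18 and was not listed at ZT6 and ZT12. Nsmce2 and E430025E21Rik, on 1 bait, shared most with Trib1, 4 fragments (5.19% and 30.8%).

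Trib3 contacted promoters only: all 6 of its partners were baits. It had 3, 4, 4 and 3 contacts from ZT0 to ZT18. The strongest was the promoter of Tbc1d20, a Rab GTPase-activating protein gene, 57.3 kb downstream, with 13.97, 17.69, 12.77 and 13.75 from ZT0 to ZT18. The promoter of Csnk2a1, which encodes a catalytic subunit of casein kinase 2, lay 123 kb downstream and scored 12.29, 17.14, 9.53 and 5.29. Both were highest at ZT6, and the ZT18 score of Csnk2a1 was near the listing minimum. The neighbouring promoter of Nrsn2 was listed at ZT12 with 5.07 and at ZT18 with 8.54. The other 3, Mir1953, Srxn1 and H13, scored 6.49 or less.

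Sik1 had the lowest top score of the 10 promoters and few contacts, 2, 3, 2 and 5 from ZT0 to ZT18. Its only contact listed throughout was the promoter of Cryaa, a lens crystallin gene, 179 kb downstream, with 6, 10.51, 7.02 and 5.56 from ZT0 to ZT18. The promoter of Hsf2bp, 177 kb upstream, was listed at ZT6 with 6.24 and at ZT18 with 6.53. All its other contacts were listed once.

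The list of other insulin signalling genes held 44 genes, of which 40 had their start on a bait in the lists. Their median number of distinct contacts was 12.5, against 48 for the 10 promoters and 9 for all baits in the lists. Of the 40, 27 exceeded this median bait. By role, the median was 20 for the 7 receptors and adaptors, 9.5 for the 8 lipid kinase subunits and phosphatases, 22 for the 12 kinases, 18.5 for the 6 factors and regulators and 11 for the 7 hepatic target genes. Pdpk1, the kinase that phosphorylates Akt, was among those with the most, at 83, as 58, 69, 69 and 72 contacts from ZT0 to ZT18. The fewest were in G6pc, which encodes the last enzyme of gluconeogenesis, with 2 (1, 2, 2 and 2), and in Pik3cd, a catalytic subunit of phosphoinositide 3-kinase, with 3 (1, 2, 1 and 2). Of the 21 with at least 10 contacts at a timepoint, 2 had a 2-fold range, against 16% of all such baits. Trib2, a paralog of Trib1 and Trib3, was among them, with 15, 18, 7 and 5 contacts and none listed throughout, and was named after its values were seen. No listed pair joined any of the 10 promoters to another of them or to any of the 40. Among the 10, only Insr and Irs2 share a chromosome, with starts at chr8:3279617 and chr8:11008458. The closest of the 40 to a member was Gsk3a, at chr7:26022870 against chr7:28376571 for Akt2. No contact of the 10 reached beyond 993 kb, and 198 of 247177 pairs joined 2 chromosomes. The absence thus says little about the pathway.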

How the data were processed

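P-CHi-C libraries were made from mouse liver at 4 timepoints. Reads were mapped to mm9 and filtered with HiCUP, the pools of a timepoint were merged and contacts were called with CHiCAGO by the authors, who deposited 1 list per timepoint. The deposited values are CHiCAGO scores of at least 5, transformed from weighted p-values against a background fitted for each list. A difference in depth between timepoints can therefore change how many pairs are listed. The read depth of the lists was not analysed here. Timepoints were taken from the labels.

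The mm9 genome was cut at HindIII sites with python 3.11.15, pandas 2.3.3 and numpy 2.4.6, and all but 1 of the 129887 listed fragments, a mitochondrial one, were found among these fragments. Pairs were treated as unordered, and fragments in the bait column of any list counted as baits. Gene starts and exons came from GENCODE vM1, and sequences from the same build. Shares have 95% Wilson intervals (scipy 1.17.1). Named were the members, genes on the 3 highest-scoring fragments of each, the promoter sharing most contacted fragments (Jaccard index, promoters with at least 10 contacts), and the 2 pathway promoters with most and with fewest contacts. Some genes that these rules name are not reported here. Other promoters at contacted baits, and further similar promoters, were named after their values were seen. The members and lists were chosen with earlier results of these data known. The counting was tested on simulated data.

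The settings varied were the score minimum (7 or 10), lists cut to equal length by score, another end within 10 kb, the nearest bait within 5 kb, all transcript starts, the gap between fragments, baits of the same timepoint, raw numbers and the list order of the summary.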

Additional observations from a re-analysis of the deposited data

How the results depend on the processing

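No paired analysis was possible because contacts were called on merged pools, and for the same reason no replicate could be left out. With a score of at least 7, the 10 promoters had 189, 204, 231 and 199 contacts from ZT0 to ZT18, and with a score of at least 10 they had 110, 113, 119 and 108, with ZT12 highest in place of ZT6. When another end within 10 kb counted as the same contact, 78.5% of contacts were listed at all 4 timepoints, 3.85% at 1 timepoint only, and 0.599% of those that reached a score of 10 were missing from another list. These shares were not computed over all pairs, so they cannot be set against the lists as a whole. Without Foxo1, an alternative added after the values were seen, the median distance was 213 kb. The place of ZT12 rested on Foxo1: without it the totals were 241, 261, 236 and 244 from ZT0 to ZT18, and 89, 86, 83 and 85 at a score of at least 10, with ZT12 lowest in both. The other alternatives left these totals within 1.5 times, and the shares and the median distance within their 95% intervals. The nearest bait within 5 kb changed nothing, since every member starts on a bait. The timepoint with the most contacts was another one, or tied, for 2 of 10 members by raw numbers, for 7 at a score of at least 10 (all but Insr, Foxo1 and Foxo3) and, by construction, for 9 in the list order of the summary, where the lists labelled ZT6, ZT12 and ZT18 are read as ZT18, ZT6 and ZT12.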
